A study of Homo sapiens with 12 samples.

Results

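RNA of the human melanoma lines MeWo and SkMel28 was compared without doxycycline (Dox). The comparison took the 6 libraries labelled with a Dox dose of 0 µg/ml, 3 of MeWo and 3 of SkMel28, out of the 12 of the series, and all 12616 measured genes of its 12683 features, the other 67 being spike-in RNAs. Both lines carried a Dox-inducible short hairpin RNA against MITF, which was not induced in these 6 libraries. Cells stood for 8 days with the medium changed every other day, and the other 6 libraries received Dox at 1 µg/ml over the same time. The labels give EMEM with serum for MeWo and RPMI with serum for SkMel28. The study's methods instead name RPMI for every human melanoma line but HBL, which would take in MeWo. If the labels hold, line and medium changed together and cannot be told apart. Each line stands for 1 tumour, and it is not stated whether the hairpin line was 1 clone or a pool. The labels do not say that replicates came from separate cultures, so that p-values measure only the spread between these samples, which may be technical.

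Melanocytes arise from the neural crest and make melanin in melanosomes, under transcription factors that include MITF, SOX10 and PAX3. Melanoma cells keep this lineage programme to different degrees and can move toward neural crest-like or undifferentiated states, in which pigment genes are low and receptors such as NGFR or AXL are high. Signalling from RAS and RAF kinases to the MAP kinase ERK drives proliferation in most melanomas. SkMel28 is known to carry an activated BRAF, and MeWo is known to lack one and to have lost NF1, a brake on RAS.

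Libraries were made from 3′ ends of polyadenylated RNA, and each of the 6 held 2568187 to 3714608 reads, of which spike-ins took 6.29 to 8.43%. Values are reads per 1000000 of effective library size, and 1 read equals 0.278 to 0.389. Across genes, Pearson correlations between replicates were 0.984 to 0.985 in MeWo and 0.979 to 0.983 in SkMel28, against 0.853 to 0.862 between the lines, and genes are not independent replicates. The 10 most abundant genes took 12.7 to 13.1% of gene reads in MeWo and 10.7 to 11.4% in SkMel28. PMEL, MLANA and SOX10, which mark the melanocyte lineage, were abundant in all 6 libraries. Of markers of other cell types, 0 of 9 endothelial and leukocyte genes and 1 of 8 keratinocyte genes were listed, the latter being KRT10 (131 to 153 in MeWo, 86.2 to 104 in SkMel28). Of 8 fibroblast genes only LUM and DCN were listed, and their sum was 41.5 to 47.8 in MeWo and 10.9 to 13.3 in SkMel28.

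The lines differed in a large share of their genes. Differences are SkMel28 minus MeWo on log2(value + 1), fitted with limma, and a gene was called at a Benjamini-Hochberg adjusted p under 0.05. Of 12616 genes, 6485 (51.4%) were called, 3352 (26.6%) of them higher and 3133 (24.8%) lower in SkMel28. A fitted difference of at least 2-fold was reached by 3330 called genes (26.4%), 1787 higher and 1543 lower. At least 4-fold was reached by 937 genes, 8-fold by 306 and 16-fold by 143, of which 91 were higher in SkMel28 and 52 lower. The 3 libraries of one line lay wholly above or below those of the other in 7836 genes (62.1%). At the other end, the 95% interval of the difference stayed within 1.5-fold in 1695 genes (13.4%). How the calls split by direction moved with the scaling, as 51.7% of calls were higher in SkMel28 with the deposited values and 61.9% (3630 higher, 2231 lower) after scaling to the spike-ins, which moved the median of all genes by 0.13. Gene lists are described by the number of members called and by their median difference, which was 4.02e-05 over all genes. Where a member was at the floor of 3 reads in a line, the median is also given, where it changes, with such members at their bound, and at 0 where both lines were at the floor. Where values are set against each other, those of MeWo come first. A gene said to be so many times higher is given by the ratio of mean values, which can differ from the fitted difference. Values are from bulk RNA, in which fewer expressing cells and less RNA per cell cannot be told apart.

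**Figure D1:**
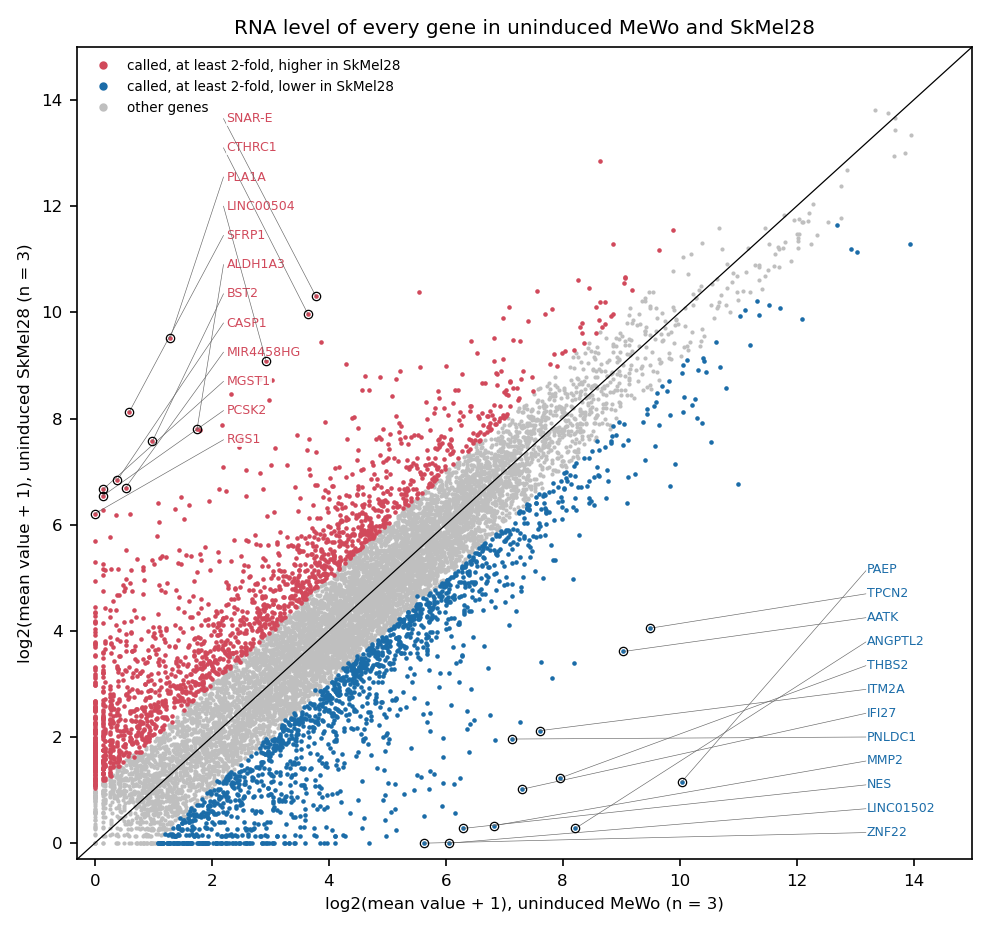
Mean level of each of 12616 genes in uninduced MeWo (horizontal) and uninduced SkMel28 (vertical), both as log2(mean of 3 libraries + 1), with the line of equality. Red and blue points are called genes at least 2-fold higher (1787) or lower (1543) in SkMel28, grey points are all other genes, and circles with names mark the 12 highest and 12 lowest differences among the named genes.

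The largest differences on the high side were those of PLA1A and SFRP1. PLA1A, a secreted phospholipase, stood at 2.59, 0.777 and 0.972 in the MeWo libraries and at 638, 772 and 798 in those of SkMel28, a log2 difference of 8.30 (SE 0.25, adjusted p 7.28e-14). SFRP1, a secreted inhibitor of WNT signalling, gave 0.864, 0 and 0.648 in MeWo and 296, 247 and 290.1 in SkMel28, at least 238-fold higher when MeWo is set at the floor of 3 reads per library. Both genes were near zero in all 3 MeWo libraries. The other genes among the 12 highest were BST2, MGST1, CASP1, SNAR-E, PCSK2, CTHRC1, ALDH1A3, RGS1, LINC00504 and MIR4458HG, with fitted differences of 6.17 to 6.58. CTHRC1, a secreted matrix protein, rested on 11.5 against 999.9, and ALDH1A3, which makes retinoic acid, on 2.36 against 223. RGS1, which limits G protein signalling, had no read in any MeWo library and 62.1, 88.5 and 68.2 in SkMel28. SNAR-E has near-identical copies in the genome, so that its value is uncertain.

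In the other direction, PAEP, a secreted lipocalin, stood at 1091, 1073 and 978 in MeWo and at 0.557, 1.59 and 1.53 in SkMel28, a log2 difference of −8.92 (SE 0.22, adjusted p 7.18e-15). ANGPTL2, a secreted angiopoietin-like protein, was 310.1, 312 and 267 against 0, 0.635 and 0, at least 258-fold higher in MeWo. For both genes the lowest MeWo library lay far above the highest SkMel28 library. THBS2, a matrix glycoprotein, differed by −6.75, and MMP2, a collagen-cleaving protease, was at least 97.3-fold higher in MeWo. The others of the 12 lowest were IFI27, LINC01502, NES, ZNF22, ITM2A, TPCN2, AATK and PNLDC1, with fitted differences of −6.37 to −5.39. PNLDC1 kept its call without SkMel28 replicate 3 but moved to −4.76.

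A further set of genes rose above the floor of 3 reads per library in 1 line only. In 85 genes every MeWo library held 3 reads or fewer while the SkMel28 mean was at least 10, and in 46 genes the reverse was true. Of the 85, 64 were also at the floor in the 3 MeWo libraries with Dox, and of the 46, 36 were also at the floor in SkMel28 with Dox. After SFRP1, CASP1 and MIR4458HG, the SkMel28 genes of this kind with the highest means were MGST1 (101), PCSK2 (92.1), APOL1 (77.0), RGS1 (72.9) and VAMP8 (72.5). CASP1, the protease of the inflammasome, was at least 97.0-fold higher, and MGST1, a membrane glutathione transferase, at least 86.8-fold. On the MeWo side, ANGPTL2, MMP2 and NES were followed by LINC01502 (65.9), RASIP1 (60.3), ZNF22 (48.7), CTNND2 (48.2) and CACNA2D1 (34.4). LINC01502 and ZNF22 had no read in any uninduced SkMel28 library. These bounds cover counting error only.

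Among transcription factors of the lineage, MITF and SOX10 were close in the lines, while PAX3, the AP-2 factors and IRF4 were not. MITF (hg38, chr3:69739456-69968336), the target of the hairpin, stood at 657, 663 and 708 in MeWo and 861, 739 and 792 in SkMel28. The SkMel28 libraries were all above those of MeWo, and the difference of 0.24 (SE 0.11, adjusted p 0.0794) was not called in the fit of all 12 libraries, but was called in a fit of these 6 alone (adjusted p 0.0255). SOX10, which acts with MITF, was 289, 296 and 293 against 273, 239.6 and 258, and its difference of −0.19 (95% interval −0.59 to 0.21) was not called. PAX3, an activator of MITF, was higher in SkMel28, at 30.2, 23.7 and 20.4 against 57.1, 59.7 and 54.0 (1.18, SE 0.16, adjusted p 6.05e-06). TFEB and TFE3 are the MITF relatives that govern lysosomal genes. TFEB was low in both lines and lower in SkMel28 (4.88 against 1.16, adjusted p 0.00198), and TFE3 stood at 23.3 and 23.4 with a 95% interval of −0.32 to 0.34 around a difference whose sign depended on the setting.

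The AP-2 factors, which regulate neural crest and melanocyte genes, differed in opposite directions. TFAP2A (hg38, chr6:10393186-10419659) stood at 673, 664 and 709.9 in MeWo and 141, 155 and 149.8 in SkMel28, a difference of −2.19 (SE 0.12, adjusted p 1.31e-10). TFAP2C (hg38, chr20:56629306-56639283) stood at 19.9, 20.2 and 15.9 in MeWo and 466, 552 and 551 in SkMel28, a difference of 4.74 (SE 0.13, adjusted p 1.72e-14). Every MeWo library was thus above every SkMel28 library for TFAP2A and below it for TFAP2C. IRF4, which acts on the tyrosinase gene in melanocytes, was 2.30, 1.94 and 1.62 against 43.2, 48.9 and 34.9, a difference of 3.87 (SE 0.27, adjusted p 2.08e-09). Of 23 listed lineage factors, 12 were higher and 4 lower in SkMel28, which is 69.6% called against 51.4% of all genes. Their median was 0.60 (0.24 at the bounds). The other named members were PRDM7 (1.45), SOX4 (−0.60) and TBX2 (−0.77). SOX4 lost its call when scaled to the spike-ins (adjusted p 0.0538).

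Pigment genes were called in both directions, and PMEL, TYR and DCT were not called. PMEL, the fibril protein of melanosomes, was at 7694, 7449 and 7208 in MeWo and 6701, 6105 and 6880 in SkMel28, and its difference of −0.18 (adjusted p 0.155) was not called and turned to 0.27 under quantile normalization. The melanin enzymes TYR and DCT overlapped between the lines. TYR stood at 346, 398 and 375 against 526, 359.5 and 429 (95% interval −0.24 to 0.68), and DCT at 939.9, 933 and 976 against 1238, 945 and 1097 (−0.048 to 0.44). The third melanin enzyme, TYRP1 (hg38, chr9:12685439-12710285), did not overlap, at 1917, 2123 and 2103 in MeWo and 122, 112 and 90.8 in SkMel28. It was 18.9 times higher in MeWo, a difference of −4.24 (SE 0.17, adjusted p 2.4e-12). TPCN2, an ion channel of melanosomes and lysosomes, was 714, 764 and 683 against 13.6, 16.2 and 16.9, a difference of −5.45 (SE 0.12, adjusted p 3.23e-15). MLANA, a melanosomal membrane protein, was higher in SkMel28 (1271, 1351 and 1358 against 2587, 2510 and 2523, 0.94, SE 0.10, adjusted p 3.1e-07).

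Of 30 listed pigment and melanosome genes, 10 were higher and 10 lower in SkMel28 (66.7% called against 51.4% of all genes). Their median was 0.12. After scaling to the spike-ins 10 were higher and 6 lower. The members with the largest differences on the high side were GPR143, a melanosomal receptor (57.5 against 194, 1.74), QPCT (1.24) and MC1R, the receptor for melanocyte-stimulating hormone (1.1). On the low side, TPCN2 and TYRP1 were followed by BCAN, a proteoglycan, at 30.5, 29.5 and 34.3 against 1.11, 0.952 and 1.53. The summed level of the list was 18110 to 18530 in MeWo and 15280 to 16450 in SkMel28.

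TYRP1 was called and TYR was not, and the stretches around their starts are shown for the hexamer that MITF is known to bind. They run from 250 bases before to 50 after the RefSeq start (GRCh38.p14, plus strand for both), chr9:12693135-12693434 for TYRP1 and chr11:89177625-89177924 for TYR, and capitals mark the E-box CATGTG or its reverse complement CACATG.
TYRP1: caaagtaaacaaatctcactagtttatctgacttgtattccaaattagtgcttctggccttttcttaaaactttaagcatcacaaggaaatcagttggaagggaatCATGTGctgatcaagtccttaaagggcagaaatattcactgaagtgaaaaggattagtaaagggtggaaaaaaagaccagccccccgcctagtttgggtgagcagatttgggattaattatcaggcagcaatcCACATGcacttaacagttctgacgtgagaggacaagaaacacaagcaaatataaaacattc
TYR: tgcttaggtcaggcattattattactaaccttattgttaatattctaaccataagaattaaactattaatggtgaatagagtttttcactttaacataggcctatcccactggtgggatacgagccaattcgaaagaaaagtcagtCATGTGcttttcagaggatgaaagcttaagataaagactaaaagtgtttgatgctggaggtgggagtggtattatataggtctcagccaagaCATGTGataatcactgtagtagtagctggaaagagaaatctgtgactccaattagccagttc
Each holds 2 copies, which begin at −144 and −11 in TYRP1 and at −104 and −12 in TYR, counted from the start. A window was found for 25 of the 30 listed pigment genes, and 14 of these 25 hold CATGTG on either strand in at least 1 of their windows (17 of 43 windows), against 11.1% of all 35116 windows. The other E-box searched, CACGTG, stood in 2 of the 43 windows and in 7.26% of all windows, and the hexamers can overlap. Such a match is a description of letters and not of binding.

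Neural crest and glial genes were more often lower than higher in SkMel28. Of 23 listed members, 12 were lower and 6 higher (78.3% called against 51.4% of all genes), with a median of −0.75. NES, an intermediate filament of neural precursors, was 78.9, 88.2 and 64.5 in MeWo and 0, 0.635 and 0 in SkMel28, at least 67.1-fold higher in MeWo. L1CAM, a neural adhesion molecule, was 212, 225 and 244 against 39.0, 39.4 and 39.5, a difference of −2.5 (SE 0.20, adjusted p 1.94e-08). NGFR, the receptor that marks the crest-like state, was low in MeWo (11.5, 12.4 and 9.39) and at the floor in SkMel28, at least 9.67-fold higher in MeWo. For all 3 genes the libraries of the lines did not overlap. In the opposite direction S100B, a calcium-binding protein of glia and melanocytes, was 65.7, 63.7 and 59.3 against 536, 481 and 513, a difference of 3.0 (SE 0.10, adjusted p 2.11e-13). MIA, a secreted melanoma protein, was 4.21 against 51.1 (3.29), and TNC, a matrix protein of migrating cells, was 6.06 against 48.0 (2.76).

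The undifferentiated and invasive list had called members in both directions, 10 higher and 12 lower of 28. That is 78.6% called against 51.4% of all genes, with a median of −0.25 (−0.34 at the bounds). NT5E, the surface enzyme CD73, was 4.61, 5.05 and 3.89 in MeWo and 189.6, 196 and 192 in SkMel28, a difference of 5.14 (SE 0.15, adjusted p 7.12e-14). KRT18 (3.01) and FOSL1 (2.0), a keratin and an AP-1 factor, were also higher. JUN, another AP-1 factor, was lower in SkMel28, at 207, 194 and 206 against 24.2, 40.0 and 29.1 (−2.69, SE 0.16, adjusted p 3.64e-10). AXL, a receptor of the undifferentiated state, was nearly absent from both lines, at 2.59, 2.33 and 4.21 in MeWo and with no read in SkMel28, and was called lower in SkMel28 (adjusted p 1.31e-05). CYR61, a secreted matricellular protein, was lower in SkMel28 as well (−1.69).

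Receptor tyrosine kinases differed in both directions. Of 25 listed receptors 10 were higher and 10 lower in SkMel28, which is 80% called against 51.4% of all genes, with a median of −0.27 (0 at the bounds). KIT (hg38, chr4:54657267-54740783), the stem cell factor receptor of melanocytes, stood at 91.9, 116 and 112 in MeWo and 6.68, 3.17 and 3.07 in SkMel28. It was 24.7 times higher in MeWo (−4.40, SE 0.26, adjusted p 2.5e-10). DDR1, a collagen receptor, was 97.9, 76.9 and 89.4 against 3.90, 3.81 and 4.21 (−4.16, SE 0.21, adjusted p 3.56e-11), and FGFR1 was 75.2, 86.2 and 93.3 against 4.46, 7.62 and 7.28 (−3.55, SE 0.19, adjusted p 6.32e-11). MET, the hepatocyte growth factor receptor, was 254, 249 and 255 against 76.0, 63.8 and 62.8 (−1.89, SE 0.15, adjusted p 9.65e-09). All 4 were thus lower in every SkMel28 library. PTK7, a receptor of planar polarity, was the member with the largest difference upward, at 3.46, 5.05 and 3.56 against 39.3, 40.9 and 35.6 (2.99, SE 0.22, adjusted p 3.6e-09), and EPHB4 (1.83) and IGF1R (0.83) were also higher. ERBB3, the neuregulin receptor, was 106, 99.1 and 109 against 81.9, 94.2 and 88.9, with no overlap, and was not called (adjusted p 0.0881). It was called in a fit of the 6 uninduced libraries alone (adjusted p 0.0494) and under quantile normalization (adjusted p 0.0195). EGFR is not among the listed genes.

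Output genes of the MAP kinase pathway were more often higher than lower in SkMel28. Of 30 listed, 15 were higher and 5 lower (66.7% called against 51.4% of all genes), with a median of 0.40. CCND1 (hg38, chr11:69641156-69654474), the cyclin that starts the cell cycle, was 146, 130.5 and 101 in MeWo and 863, 959 and 1032 in SkMel28, 7.56 times higher (2.92, SE 0.20, adjusted p 2.09e-09). IER3, an immediate early gene, was 140.2, 129 and 132 against 1040, 1128 and 1105 (3.02, SE 0.14, adjusted p 9.69e-12). SPRY1, a feedback inhibitor of the pathway, was 0.576, 1.55 and 3.24 against 27.6, 42.8 and 41.4 (3.87, SE 0.34, adjusted p 4.41e-08). In these 3 genes the lines did not overlap, but not every output gene followed. The phosphatase DUSP6 was 144, 158 and 146 against 144, 189.8 and 162 (adjusted p 0.415), and the immediate early genes FOS (−1.49) and MYC (−1.32) and the phosphatase DUSP7 (−1.54) were lower in SkMel28. NF1 itself was 4.61, 3.50 and 6.80 in MeWo and 14.8, 13.3 and 17.6 in SkMel28 (1.47, SE 0.23, adjusted p 4.09e-05), and BRAF, at 1.92 and 2.04, was too low to compare.

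Most genes of the dividing cell were higher in SkMel28. Of 40 listed proliferation genes 31 were higher and 1 lower (80% called against 51.4% of all genes), with a median of 0.94. Over the alternatives the count of higher members stayed between 27 and 31. RRM2, a subunit of ribonucleotide reductase, was 35.7, 42.4 and 41.8 in MeWo and 197, 184 and 169 in SkMel28 (2.17, SE 0.13, adjusted p 2.29e-10). MCM5, part of the replicative helicase, was 26.5, 28.8 and 26.6 against 117, 105 and 123 (2.03, SE 0.19, adjusted p 1.13e-07), and MKI67 was 38.6, 36.1 and 41.1 against 86.3, 90.1 and 77.4 (1.11, SE 0.14, adjusted p 3.91e-06). HMMR differed by 2.21. The exception was TK1, the salvage kinase for thymidine, at 34.8, 44.7 and 53.8 against 25.1, 19.99 and 18.4 (−1.03, SE 0.19, adjusted p 0.000208). TK1 lies in a stretch of chromosome 17 in which most genes were lower in SkMel28, and a link between its position and its level was not tested.

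Genes of cell cycle entry, its inhibitors and p53 targets were called in both directions. CDKN2A (hg38, chr9:21967752-21995301), whose locus encodes p16 and ARF, was 10.1, 15.2 and 12.6 in MeWo and 123, 96.5 and 98.9 in SkMel28 (2.98, SE 0.25, adjusted p 2.35e-08). Its neighbour MTAP, of the methionine salvage pathway, was 36.6, 34.6 and 53.4 against 62.6, 65.4 and 57.9 (0.59, SE 0.17, adjusted p 0.00747). Both were thus detected in both lines. The kinase inhibitor CDKN2D (2.16) and the p53 target TP53INP1 (2.27) were higher too, whereas the kinase inhibitor CDKN1C (−1.78), the p53 target FDXR (−1.38) and the retinoblastoma gene RB1 (−1.0) were lower. CDK2 was 2940, 2927 and 2936 against 1992, 1372 and 1992 (−0.74, SE 0.19, adjusted p 0.00395), but it lies within the span of PMEL on the other strand and its call was lost under quantile normalization (−0.38, adjusted p 0.112). Of 32 members of this list, 14 were higher and 7 lower (65.6% called against 51.4% of all genes).

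Among apoptosis regulators the survival genes of the BCL2 family differed in opposite directions. BCL2A1 (hg38, chr15:79960892-79971196), a survival protein of the BCL2 family, was 8.06, 8.94 and 4.53 in MeWo and 431, 423 and 416 in SkMel28, 59.0 times higher (5.74, SE 0.23, adjusted p 3.52e-12). BCL2 went the other way, at 37.1, 33.4 and 32.1 against 11.1, 11.7 and 9.20 (−1.59, SE 0.22, adjusted p 1.01e-05). MCL1 was not called, at 279, 295 and 259 against 213, 248 and 257 (adjusted p 0.105), although the libraries did not overlap. The pro-apoptotic genes BCL2L11 (2.01) and CASP8 (1.88) were higher in SkMel28 and BAD (−1.0) was lower. Of 27 listed members 10 were higher and 3 lower, a share called of 48.1% that lies under the 51.4% of all genes.

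**Figure D2:**
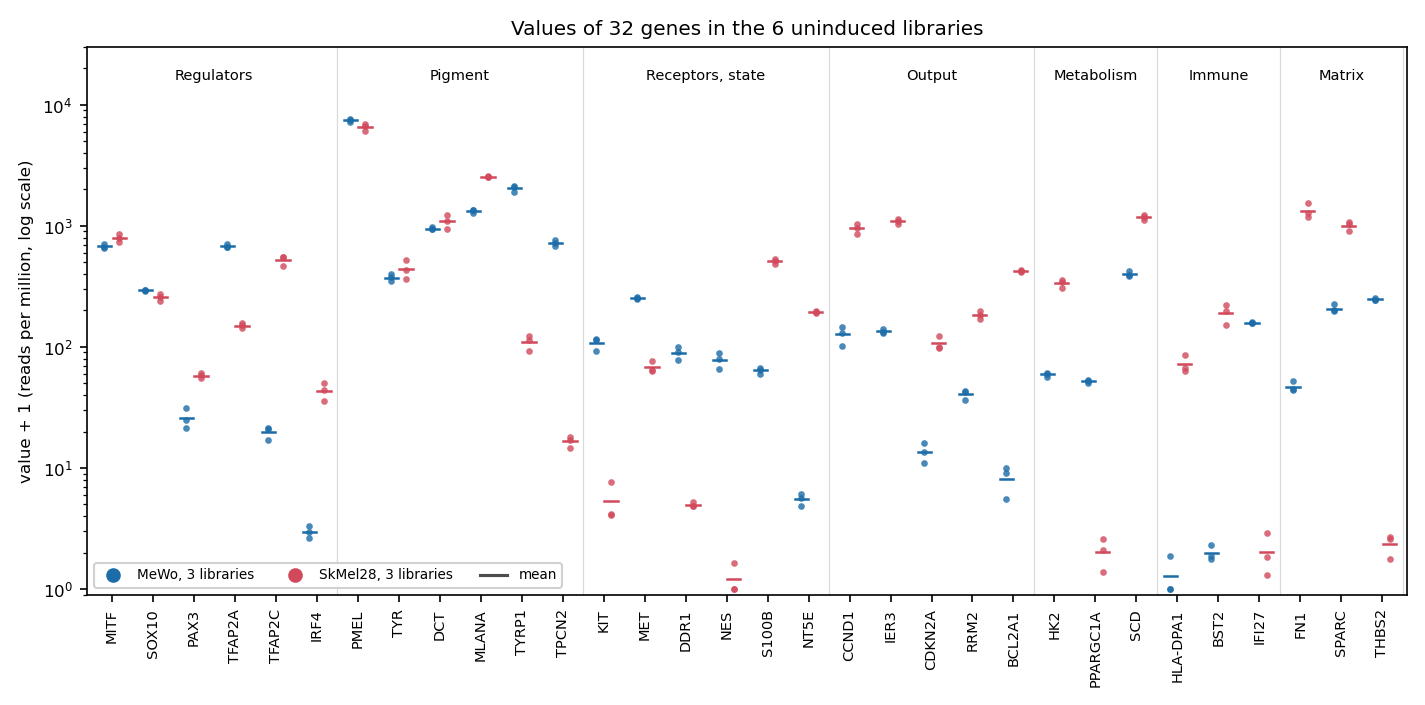
Value + 1, in reads per 1000000 on a log scale, of 32 genes in the 3 MeWo (blue) and 3 SkMel28 (red) uninduced libraries, with bars at the mean. MITF, SOX10, PMEL, TYR and DCT sit close together in the lines, whereas TFAP2C, NT5E, BCL2A1, HLA-DPA1 and BST2 are far higher in SkMel28, and TPCN2, KIT, NES, PPARGC1A, IFI27 and THBS2 far higher in MeWo.

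Among regulators of mitochondria, PPARGC1A and ESRRA were lower in SkMel28. PPARGC1A (hg38, chr4:23755041-23904089), the coactivator PGC-1α that drives mitochondrial biogenesis downstream of MITF in some melanomas, was 52.4, 49.7 and 51.5 in MeWo and 1.11, 1.59 and 0.383 in SkMel28. The lines were far apart, with a ratio of means of 49.8 and a fitted difference of −4.73 (SE 0.30, adjusted p 7.39e-10). The SkMel28 values are only a few reads, so that this ratio is imprecise. ESRRA, its partner receptor, was 115, 99.8 and 104 against 31.5, 41.2 and 34.9 (−1.55, SE 0.21, adjusted p 7.26e-06), and TFAM, which maintains mitochondrial DNA, differed by −0.66. Of 14 listed regulators 4 were lower and 1 higher, and the 35.7% called lies under the 51.4% of all genes. The 77 nuclear genes of the respiratory chain and ATP synthase had a median of −0.042, with 24 lower and 12 higher, 7 of them by at least 2-fold, and the 46.8% called is likewise under that of all genes. Scaling to the spike-ins turned this balance, to 15 higher and 11 lower. ATP5H was the lowest, at 429, 445 and 441 against 101, 123 and 111 (−1.97).

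Glycolytic genes were more often higher in SkMel28, with 15 of 28 higher and 7 lower (78.6% called against 51.4% of all genes). Their median was 0.45. HK2, the inducible hexokinase, was 55.6, 59.8 and 59.3 in MeWo and 307, 355 and 341 in SkMel28 (2.5, SE 0.11, adjusted p 8.58e-12). PDK1, a kinase that inhibits pyruvate dehydrogenase, was 6.33, 10.9 and 9.07 against 55.4, 49.5 and 56.3 (2.51, SE 0.22, adjusted p 4.73e-08). The glucose transporter SLC2A3 was 16.4, 14.8 and 21.1 against 72.7, 86.0 and 89.7 (2.19, SE 0.15, adjusted p 1.41e-09). Each was higher in all 3 SkMel28 libraries. The kinase PDK4 did the reverse, at 79.8, 86.2 and 87.5 in MeWo and 5.29, 4.44 and 1.53 in SkMel28 (−4.27, SE 0.34, adjusted p 1.26e-08), so that the PDK isoforms differed in opposite directions. ALDOC was 27.4, 20.6 and 22.0 against 0.835, 0.317 and 0, at least 20.3-fold higher in MeWo, and PFKP differed by −1.40.

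Sterol and fatty acid synthesis was higher in SkMel28 along most of the pathway. Of 35 listed genes 23 were higher and 4 lower (77.1% called against 51.4% of all genes), with a median of 0.83. CYP51A1, which demethylates lanosterol, was 23.6, 22.5 and 23 against 123, 134 and 139 (2.47, SE 0.14, adjusted p 1.6e-10). HMGCS1, an early enzyme of the pathway (50.8 against 153), was also higher. So was SCD, the desaturase of stearate, at 394, 383 and 419 against 1111, 1192 and 1225 (1.56, SE 0.11, adjusted p 1.67e-09). SREBF2, the factor that activates sterol genes, was higher (57.9 against 183), and its relative SREBF1 lower (−0.54, a call lost after scaling to the spike-ins at adjusted p 0.157 and without MeWo replicate 3 at 0.0712). SCD5, another desaturase, was lower in SkMel28 (−1.11).

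In the list of serine synthesis and amino acid response 11 of 35 members were higher and 10 lower (median 0.044), and in lysosomal nutrient sensing 7 of 29 were higher and 6 lower (median −0.14). The shares called, 60% and 44.8%, lie near the 51.4% of all genes. PHGDH, the first enzyme of serine synthesis, was 76.0, 69.9 and 77.1 against 276, 220.5 and 259 (1.74, SE 0.16, adjusted p 1.23e-07), and the stress gene NUPR1 differed by 2.35. ATF4, the factor of the response, was 343 and 313 and was not called. The amino acid transporters SLC7A1 (−1.66), SLC38A2 (−1.59) and SLC7A5 (−1.54) were lower in SkMel28, the last at 510.0, 509 and 552 against 178, 184 and 176. LAMTOR1, an anchor of mTORC1 on lysosomes, was 300.0, 298 and 316 against 114, 109.5 and 88.9 (−1.55, SE 0.11, adjusted p 4.79e-09). SESN3, a stress-responsive gene, was 7.25 against 32.4 (1.99). RRAGD was 147, 144 and 137 against 131, 131 and 111 (adjusted p 0.169), and FNIP2, which acts with folliculin, was 56.1, 60.2 and 54.7 against 76.6, 78.4 and 84.7 (0.48, SE 0.14, adjusted p 0.00797).

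In antigen presentation, more members were higher than lower in SkMel28 for both classes of MHC. Of 19 listed genes of class I presentation 12 were higher and 3 lower (78.9% called against 51.4% of all genes). Their median was 1.03. HLA-C, which presents peptides on most cells, was 20.2, 31.9 and 22.7 against 346, 370.3 and 390.1 (3.86, SE 0.22, adjusted p 1.78e-10) and HLA-F 19.3, 19.4 and 21.4 against 220.0, 317 and 237 (3.61, SE 0.27, adjusted p 7.58e-09). Their light chain did not follow, since B2M was lower in SkMel28, at 1016, 1213 and 1241 against 689, 784 and 618 (−0.73, SE 0.14, adjusted p 0.000327). The immunoproteasome subunit PSMB9 was 5.18, 2.33 and 6.48 against 48.2, 30.8 and 46.4 (2.97), while PSMB10 (−0.86) and the peptide transporter TAP2 (−0.86) were lower. HLA genes vary between people and resemble each other, and how their reads were counted is not given in the sources used here, so that the HLA values are uncertain.

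Class II genes, which professional antigen-presenting cells use and some melanomas express, were near zero in MeWo. Of 12 listed members 10 were higher in SkMel28 and 0 lower (83.3% called against 51.4% of all genes). Their median was 2.28 (2.06 at the bounds). In 9 of the 12 MeWo alone was at the floor, and expression in 1 line is enough for a gene to be listed. HLA-DPA1 was 0.864, 0 and 0 in MeWo and 85.5, 62.8 and 65.9 in SkMel28, at least 61.3-fold higher. HLA-DQB1 was 0, 0 and 0.324 against 47.6, 26.6 and 38.3, HLA-DRA 0, 0 and 0.324 against 17.5, 14.6 and 18, and the invariant chain CD74 0, 0.389 and 0 against 25.6, 14.9 and 21.1. Those 3 were at least 32.2-, 14.3- and 17.6-fold higher. CIITA, the coactivator of class II genes, was at or under 3 reads in all 6 libraries, with the highest value at 0.766, and could not be compared at this depth. With a pseudocount of 5 the count of higher members was 7.

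The promoters of 2 class II genes are shown for a motif they share, the Y box CTGATTGG, known from class II promoters. Both run from 250 bases before to 50 after the RefSeq start (GRCh38.p14, minus strand), HLA-DQB1 at chr6:32666608-32666907 and HLA-DMA at chr6:32953048-32953347, and capitals mark the motif.
HLA-DQB1: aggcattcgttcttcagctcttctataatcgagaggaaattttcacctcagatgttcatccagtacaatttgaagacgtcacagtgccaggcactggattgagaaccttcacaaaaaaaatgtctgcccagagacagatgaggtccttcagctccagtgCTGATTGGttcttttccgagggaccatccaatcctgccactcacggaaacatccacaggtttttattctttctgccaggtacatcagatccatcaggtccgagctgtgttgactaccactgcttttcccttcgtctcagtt
HLA-DMA: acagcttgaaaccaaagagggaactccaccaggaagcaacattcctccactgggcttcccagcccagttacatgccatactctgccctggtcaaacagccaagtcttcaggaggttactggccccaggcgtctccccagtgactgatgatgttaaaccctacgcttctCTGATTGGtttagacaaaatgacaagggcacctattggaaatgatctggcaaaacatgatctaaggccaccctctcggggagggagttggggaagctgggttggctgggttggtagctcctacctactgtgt
The motif begins at −91 in HLA-DQB1 and at −82 in HLA-DMA. A window was found for 10 listed class II members, and 4 of their 11 windows hold the motif on either strand (HLA-DQB1, HLA-DMA, HLA-DRB1 and HLA-DRB5), against 3.97% of all 35116 windows. HLA-DMA, which loads peptides onto class II, was 0, 0.389 and 0 in MeWo and 15.3, 8.25 and 15.3 in SkMel28, at least 11.1-fold higher.

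Interferon-stimulated genes were more often higher than lower in SkMel28, with 21 of 43 higher and 8 lower. The list had 67.4% called against 51.4% of all genes and a median of 0.54 (0.40 at the bounds). BST2, the tetherin that holds viruses at the membrane, was 0.864, 0.777 and 1.30 in MeWo and 149.8, 222 and 196 in SkMel28 (6.58, SE 0.23, adjusted p 4.14e-13). DTX3L, a ubiquitin ligase, was 50.1 against 254 (2.32). IFI27 did the opposite, at 157, 157 and 158 in MeWo and 0.835, 0.317 and 1.92 in SkMel28 (−6.37, SE 0.26, adjusted p 3.74e-12). ISG20 (−1.77) and IFITM3 (−1.52) were lower too. Defining members of the list were low, with MX1 at 1.15, 2.33 and 2.92 against 6.40, 3.17 and 3.83 and IFIT2 at 2.30, 1.94 and 1.30 against 1.39, 0.635 and 0.383, and neither was called. In a list of 19 genes of cytokines, chemokines and NF-κB regulators, 3 were higher and 6 lower, which is 47.4% called against 51.4% of all genes. Of these, CXCL1 (22.1 against 4.28), NFKBIA (−1.09) and VEGFA (−0.73) were lower in SkMel28, and TNFSF13B was higher (1.12 against 11.6).

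Matrix genes formed distinct sets in the lines. Of 36 listed members 15 were higher and 17 lower in SkMel28, so that 88.9% were called against 51.4% of all genes. Their median was −0.44 (−0.24 at the bounds). FN1 (hg38, chr2:215360440-215436073), fibronectin, was 43.2, 43.5 and 50.9 in MeWo and 1191, 1549 and 1272 in SkMel28, 29.2 times higher (4.83, SE 0.20, adjusted p 5.03e-12). SPARC, a collagen-binding protein, was 196, 223 and 199 against 1076, 907 and 1027 (2.27, SE 0.12, adjusted p 5.83e-11), and the collagen chains COL11A1 (4.60) and COL6A2 (at least 15.5-fold) were higher as well. MeWo held THBS2 at 252, 245 and 245, where SkMel28 gave 1.67, 1.59 and 0.766 (−6.75, SE 0.17, adjusted p 1.24e-14). The basement membrane collagens COL4A2 (32.0, 47.0 and 35.6 against 0.835, 0.317 and 1.53) and COL4A1, which lie head to head, were likewise higher in MeWo, by −4.40 for COL4A2 and at least 15.6-fold for COL4A1. LUM, a fibroblast marker as well as a matrix gene, was 44.4 against 11.8 (−1.83). The other listed fibroblast marker, DCN, was at 1.94 or under in every library, and the part of other cells in these values was not tested.

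Adhesion genes were balanced in direction, with 15 of 34 higher and 12 lower (79.4% called against 51.4% of all genes). Their median was 0.010. CDH1, the epithelial cadherin that ties melanocytes to keratinocytes, was 44.9, 50.1 and 61.9 in MeWo and 3.06, 5.71 and 4.60 in SkMel28 (−3.31, SE 0.27, adjusted p 1.82e-08). CDH3, the placental cadherin, was 19.98 against 84.4 (2.02), and CDH2, the neural cadherin, was lower in SkMel28 (30.2 against 13, −1.17). ITGB3, an integrin subunit of invasive melanoma, was 0.864, 0.777 and 2.27 against 22.0, 27.0 and 28.0 (3.58, SE 0.29, adjusted p 1.66e-08), and ICAM1, a ligand of leukocyte integrins, was higher too (2.60). MCAM, a melanoma adhesion molecule, was 12.4, 14.4 and 29.8 against 75.2, 442 and 66.3, and its difference of 2.83 (SE 0.75, adjusted p 0.00429) became 1.95 without SkMel28 replicate 2, which held the highest value, and stayed called. NCAM1 (−2.81) was lower along with L1CAM.

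Of 28 listed HOX genes, which set body position, 13 were higher and 4 lower in SkMel28 (median 0.55, or 0.40 at the bounds), and the 60.7% called lies close to the 51.4% of all genes. Members of the HOXB cluster on chromosome 17 were at or near zero in MeWo, as HOXB5 at 0.288, 0.389 and 0.324 against 15.9, 14.6 and 15.3 and HOXB4 at 0, 0.389 and 0 against 10.0, 15.6 and 12.7. HOXB7 was present in both (4.75 against 29.7). HOXC10 (27.8 against 7.18) and HOXC9 (−0.74) were lower in SkMel28. Neighbouring HOX genes overlap in the annotation, which limits their separation. Of 55 cancer-testis antigens, which are germ-line genes that tumours can express, 13 were listed. Of these, 7 were higher and 3 lower (median 2.10, or 1.68 at the bounds), 76.9% called against 51.4% of all genes. In 4 of them MeWo alone was at the floor, and in 1 SkMel28 alone. Every listed gene held a value of at least 1 in 3 libraries or more, which 1 line alone can supply, so that this share depends partly on what was listed. CSAG1 (0.864, 2.33 and 1.62 against 28.4, 24.8 and 25.7) and MAGEA3 (at least 15.3-fold) were higher, and CTAG2 was lower, at 188, 206 and 199 against 16.1, 9.20 and 3.45 (−4.43, SE 0.33, adjusted p 6.62e-09). PRAME, a melanoma antigen, was 1557, 1488 and 1382 against 1043, 1134 and 1204 (−0.39, SE 0.11, adjusted p 0.00547), a call lost after scaling to the spike-ins (adjusted p 0.305). The MAGE-A, CSAG and CTAG genes have near-identical copies and are uncertain.

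**Figure D3:**
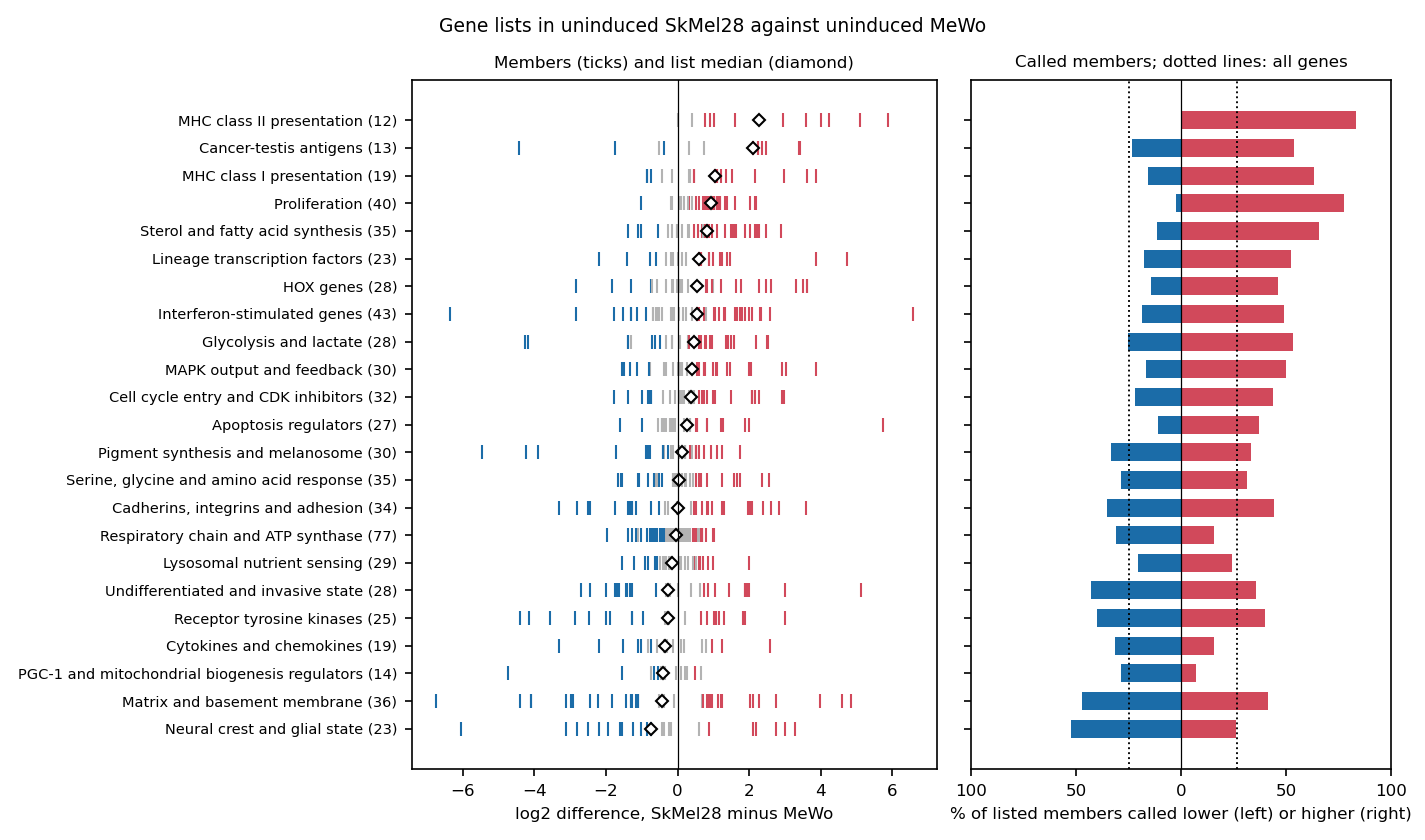
Gene lists with at least 10 listed members, ordered by median. On the left, ticks are the log2 difference SkMel28 minus MeWo of each member (red called higher, blue called lower, grey not called) and diamonds the list median. On the right, bars give the percentage of listed members called lower or higher, and dotted lines the same over all genes (24.8% lower, 26.6% higher). MHC class II and proliferation genes lie almost wholly on the high side, and matrix genes on both sides.

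Along several chromosomes, stretches of neighbouring genes shared the direction of the difference. Blocks were set after values had been seen. The 9919 genes whose mean reached 5 were taken in gene order in 199 blocks of 46 to 53 genes, whose median differences ran from −1.75 to 1.26 around −0.012. In 24 blocks the median was over 0.5 and in 25 under −0.5. The lowest block lay on chromosome 11 (chr11:69048932-78139660, hg38), where 46 of 51 genes were called lower in SkMel28 and 2 higher. It holds TPCN2 and LAMTOR1, and its 2 higher genes were CCND1 and DHCR7 (30.7 against 60.7). Chosen after their values were seen, the ribosomal protein gene RPS3 (15770 against 2506, −2.67) and FADD, an adaptor of death receptors (221 against 48.2, −2.18), are further examples of it. The next 3 were neighbours on chromosome 17 (chr17:58353676-80253500), with medians of −1.21, −1.44 and −1.45, and hold ATP5H and TK1, and also RPL38 (4358 against 940.2), chosen in the same way. On chromosome 13, which holds RB1, the median was −0.90, with 64.0% of its 186 genes lower and 8.60% higher, but its last block, with COL4A1, had a median of only −0.19 and 17 of 46 genes lower. The highest block lay on chromosome 9 (chr9:32886601-37832117), with 43 of 51 genes higher and 1 lower, as in VCP, a chaperone ATPase (102 against 408). On chromosome 22, 63.0% of 251 genes were higher and 6.77% lower. In the libraries with Dox, which are other samples, all 49 blocks past 0.5 in size kept their sign, with r = 0.917 over the 199 blocks as a description.

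**Figure D4:**
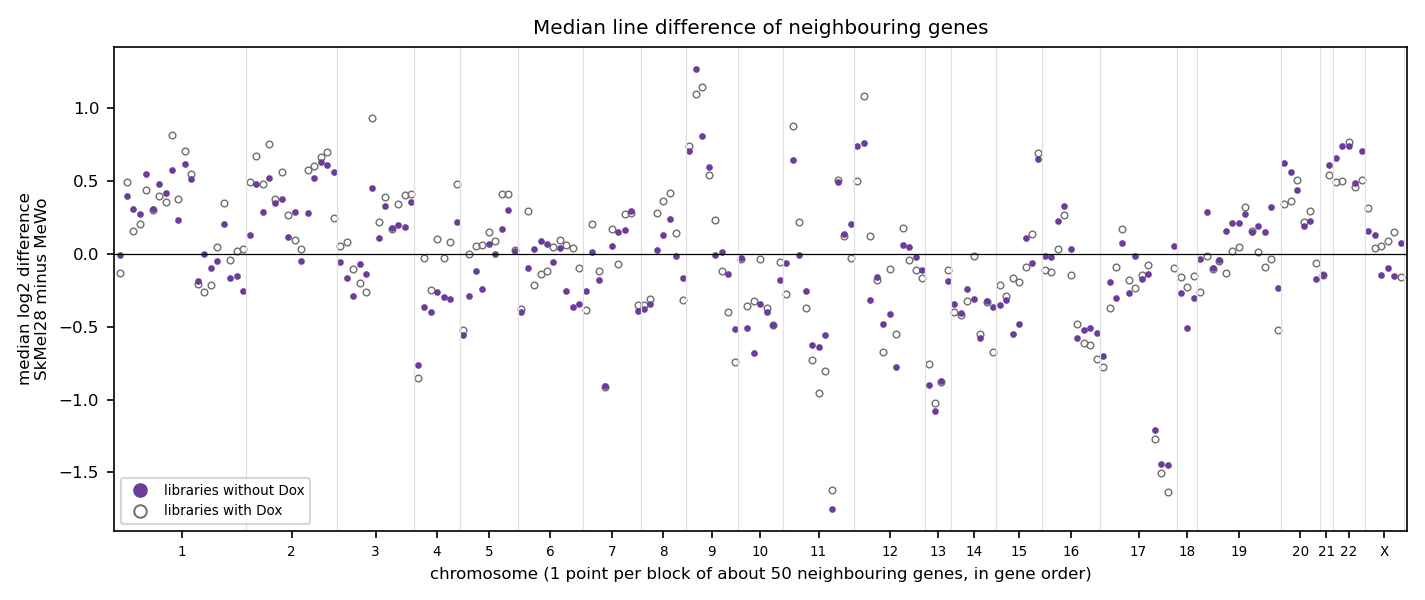
Median log2 difference SkMel28 minus MeWo of each of 199 blocks of neighbouring genes, in gene order along chromosomes 1 to 22 and X, without Dox (filled) and with Dox (open). Blocks on chromosomes 11, 13 and 17 lie lowest, down to −1.75, and a block on chromosome 9 highest, at 1.26.

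The libraries with Dox gave a second look at the same lines, with the hairpin against MITF induced in both. These samples did not enter the differences above, apart from the shared estimate of spread. Their replicates correlated at 0.960 to 0.976 in MeWo, lower than in any other group, and at 0.981 to 0.985 in SkMel28. Between the lines with Dox 6766 genes (53.6%) were called, against 51.4% without Dox. In both comparisons 4601 genes were called in the same direction, which is 70.9% of the calls without Dox and 68.0% of those with Dox. A further 83 genes were called in opposite directions. Of the 3330 called genes with at least 2-fold without Dox, 3224 (96.8%) had the same sign and 2787 (83.7%) were also called in that direction with Dox. Across genes the differences correlated with r = 0.847, which describes these libraries only. MITF itself stood at 451, 354 and 371 in MeWo and 575, 578 and 552 in SkMel28 with Dox (0.54, adjusted p 0.00045). Large baseline differences recurred in several named genes, and with Dox they were −7.33 for PAEP, −7.98 for THBS2, −4.98 for KIT and 4.57 for TFAP2C. The size itself changed with Dox in 894 genes by the test of the difference, 374 of them among the 3330. TFAP2A was the clearest of the lineage factors, at 485, 332 and 381 in MeWo and 311, 296 and 299 in SkMel28 with Dox, where the difference shrank from −2.19 to −0.39. DDIT4, a stress gene that restrains mTORC1, turned from 1.67 to −0.71.

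**Figure D5:**
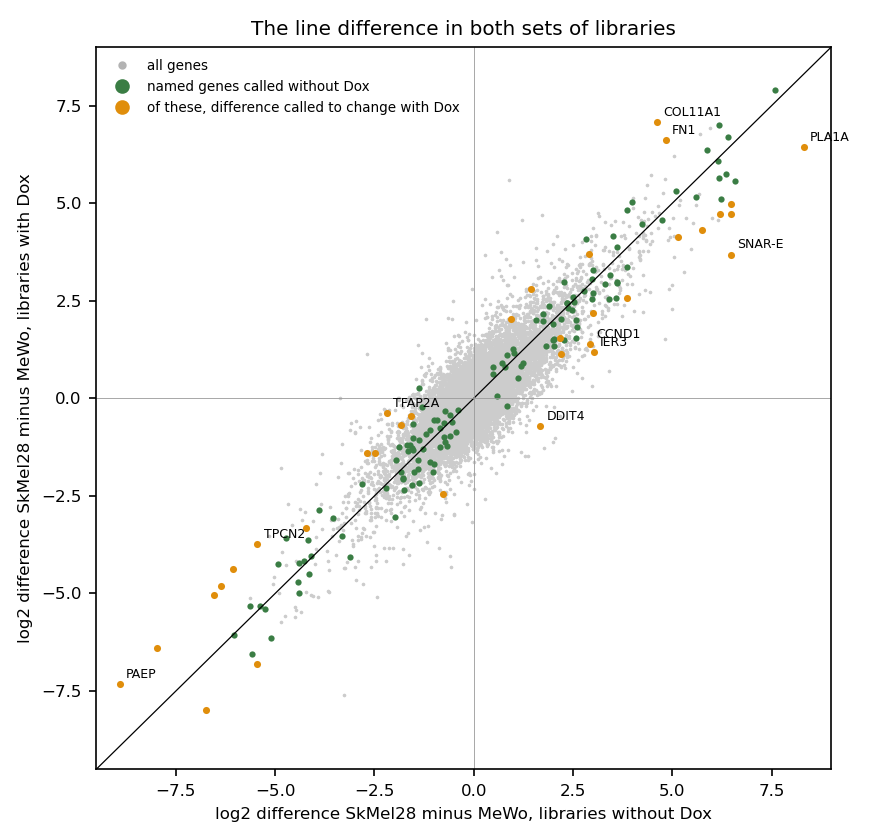
Log2 difference SkMel28 minus MeWo of every gene without Dox (horizontal) and with Dox (vertical), with the line of equality. Named genes called without Dox are green, and orange where the difference itself was called to change with Dox. Most lie near the line, while DDIT4 crosses zero.

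The genes AATK, ALDOC, ANGPTL2, ATP5H, BAD, BCL2L11, BRAF, CASP8, CCND1, CDK2, CDKN2A, CIITA, COL4A1, COL4A2, CYP51A1, DTX3L, EPHB4, ESRRA, FGFR1, GPR143, HLA-DMA, HLA-DPA1, HLA-F, HOXB4, HOXB5, HOXB7, HOXC9, IFIT2, KRT10, LAMTOR1, MC1R, MCAM, MLANA, NF1, PMEL, PSMB9, RB1, SOX10, SREBF1, TBX2, TFAP2A, TP53INP1 and TYRP1 overlap another listed gene in the annotation. The strand used in counting is not given in the sources used here, so that reads in a shared stretch may belong to either gene. Overlap was taken over whole gene spans, and whether it reaches the 3′ ends that were read was not tested.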

How the data were processed

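RNA from MeWo and SkMel28 carrying an inducible hairpin against MITF was made into QuantSeq 3′ libraries and sequenced from read 1. Per the labels, the authors used FastQC 0.11.7, cutadapt 2.8, STAR 2.5.1b on hg38 and edgeR. The counting tool, annotation and strand are not given in the sources used here. The deposited values are a signal, reads per 1000000 of effective library size as normalised by the authors, and were whole multiples of 1 read in 100% of cases (tolerance 0.001 reads). Every gene held a value of at least 1 in 3 libraries or more.

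Groups came from the labels. Log2(value + 1) of 12616 genes was fitted with limma 3.58.1 (R 4.3.3) over all 12 libraries with 4 group means and a mean-variance trend, and p-values were adjusted over all genes by Benjamini-Hochberg. In simulated data on 12616 genes for this comparison, 83% of 100 genes changed 2-fold and 100% of 100 changed 4-fold were recovered. The simulation gave every gene the same assumed spread and changed only a small part of the genes, none with a low mean. These shares are thus no measure of power for low genes, or for data in which many genes differ. Alternatives were edgeR 4.0.16 and DESeq2 1.42.0 on recovered reads, other scalings, pseudocounts of 0.1 and 5, a low-value filter, no trend, the 6 libraries alone, a replicate block and each library left out. Loci are from GENCODE v44 on hg38 and were matched for 97.1% of genes. Promoter windows are RefSeq's. Intervals come from the spread between these libraries, and floors cover counting error only.

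Named genes were a fixed set, the 12 highest and 12 lowest called differences with a mean of at least 10 and no overlap, the 3 highest and 3 lowest called members of each gene list, and the 8 most abundant genes at the floor in the other line. Members and lists were chosen with earlier results of these data known. Chosen after their values were seen were MCL1, IFIT2, MX1, MKI67, FADD, DHCR7, RPS3, RPL38, VCP, DUSP6, NF1, BRAF, DCN, CIITA, CDH2, CDH3, HOXB7, CDKN2D, ATF4, SREBF2, DTX3L, HMGCS1, SPARC, HLA-DRA, HLA-DMA, HLA-DRB1 and HLA-DRB5. Genes of the sex chromosome Y were not named, and some other genes are not reported here.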

Additional observations from a re-analysis of the deposited data

Results flagged for a closer look

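The line difference with Dox minus that without it passed the test of the difference itself (limma, adjusted p under 0.05) in the named genes given here. Values in parentheses after gene names are that change, on the log2 scale, so that a negative value means that SkMel28 stood lower relative to MeWo with Dox. Among pigment genes and lineage factors it was called in DCT (−1.16), MLANA (1.1), TYRP1 (0.90), TPCN2 (1.72), TFAP2A (1.81), TBX2 (−1.68) and PRDM7 (1.34). DCT was not called between the lines without Dox, at 0.19, and lay at −0.96 with Dox, whereas MLANA went from 0.94 to 2.04. Signalling and immediate early genes were CCND1 (−1.54), IER3 (−1.83), JUN (1.29) and ERBB3 (−1.13). CCND1 and IER3 stayed higher in SkMel28 with Dox, at 1.38 and 1.19, and ERBB3 went from −0.25 to −1.37.

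Matrix and adhesion genes with such a change were FN1 (1.78), THBS2 (−1.23), LUM (1.16) and L1CAM (1.09), and the neural crest marker S100B gave −0.82. FN1 was already higher in SkMel28 and reached 6.61 with Dox. Metabolic, survival and stress genes were DDIT4 (−2.38), RRAGD (0.64), SLC38A2 (1.15), SLC2A3 (−1.06), RRM2 (−0.63), BCL2A1 (−1.43) and NT5E (−1.01). Immune and other genes were HLA-C (−1.30), IFI27 (1.57), PAEP (1.59), PLA1A (−1.86), AATK (−1.37) and SNAR-E (−2.79). In ANGPTL2 (1.58), LINC01502 (1.69), MMP2 (1.49), CASP1 (−1.76), MGST1 (−1.51) and RGS1 (−1.47) one line was at the floor of 3 reads without Dox. In COL11A1, with 2.48, MeWo was at the floor with Dox. Without Dox, SkMel28 was near the floor in PAEP, IFI27 and THBS2, and MeWo in PLA1A. For all of these genes the fitted change depends on the pseudocount.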

How the results depend on the processing

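Between the lines without Dox, 5675 to 7147 genes were called over all alternatives, against 6485, with 7147 in a fit of the 6 uninduced libraries alone and 5675 after a filter on low values. On the recovered reads edgeR called 6442 and DESeq2 5991. Leaving out 1 library left 5685 to 5888 calls, and 3328 to 3433 called genes with at least 2-fold against 3330, which a pseudocount of 5 moved to 1882, since a larger pseudocount shrinks low genes. With Dox the calls stayed at 5974 to 7193 without 1 library. With the replicate block 6371 genes were called without Dox and 6632 with it. Deviations of same-numbered libraries of the lines correlated with r of −0.118, −0.089 and −0.202 without Dox. With Dox r was 0.106, −0.159 and −0.263. Such values cannot show whether the samples were paired, and the block is given as an alternative only.

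Of 2856 values of 168 named genes under 17 alternatives, 2826 kept direction and call. The sign turned for PMEL under quantile normalization (0.27, adjusted p 0.0471), and for TFE3 under upper-quartile scaling (−0.022), without MeWo replicate 3 (−0.079) and without SkMel28 replicate 3 (−0.046). Over the libraries left out in turn, the difference of TFE3 ran from −0.079 to 0.074. Over the libraries left out in turn, the difference of TFE3 ran from −0.079 to 0.074. Over the libraries left out in turn, the difference of TFE3 ran from −0.079 to 0.074. Over the libraries left out in turn, the difference of TFE3 ran from −0.079 to 0.074. Calls were lost for BID, CDK2, DEPDC5, OPA1, PRAME, SOX4 and SREBF1 and gained for ERBB3, MITF and RRAGD, and the cause was not tested. Depth limits genes near 1 read, which equals 0.278 to 0.389 here, and leaves those at the floor in both lines without a comparison, which are 118.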
